A study of Homo sapiens with 60 samples.

Results

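The cytosolic ribosomal protein genes were taken as the protein-coding rows of the HepG2 count table whose symbol begins with RPL or RPS and a number, together with RPLP0, RPLP1, RPLP2 and RPSA. The RPS6K kinases and pseudogenes were left out. The rule gave 91 of the 60675 genes in the table. By role they were 43 genes of the large subunit, 31 of the small subunit, 3 of the stalk, 10 paralogs, 3 read-through transcripts and RPS19BP1, which encodes a binding partner of RPS19 and matched the rule by its symbol alone. The 77 subunit and stalk genes carry the description of summed levels. Of the 91 members 87 passed the filter on low counts, and RPL39L, RPL10L, RPS4Y2 and the read-through RPL36A-HNRNPH2 did not.

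Cytosolic ribosomes translate the messages of the nuclear genome and are built in the nucleolus from ribosomal RNA and one copy of most of these proteins. The large subunit holds the peptidyl transferase centre, the small subunit decodes the message, and RPLP0, RPLP1 and RPLP2 form the stalk that recruits elongation factors. In many tissues, liver included, ribosomal protein messages are among the most abundant, and most begin with a cytidine followed by an unbroken run of pyrimidines, the 5′ terminal oligopyrimidine (TOP) motif. That motif couples their translation to the kinase mTORC1 through LARP1. RPL5 and RPL11 also bind the ubiquitin ligase MDM2.

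All libraries came from HepG2, a human liver carcinoma cell line, treated for 24 h with ethanol extracts of medicinal herbs or herbal formulas, or with the DMSO vehicle (3 libraries). Each of 8 extracts was given at 3 doses in falling steps. Coptidis Rhizoma was given at 280, 56 and 11.2 µg/mL and Zizyphi Fructus at 500, 100 and 20 µg/mL, each with 2 libraries per dose, in the set numbered 11. Citri Unshius Pericarpium and Cimicifugae Rhizoma, at 500, 100 and 20 µg/mL with 3 libraries per dose, formed set 12. Bupleuri Radix at 280, 56 and 11.2 µg/mL and Aconiti Lateralis Radix Preparata at 500, 100 and 20 µg/mL, with 3 libraries per dose, formed set 13. The formulas Yijung-tang (2 libraries per dose) and Banhasasim-tang (1 library per dose), at 500, 100 and 20 µg/mL, formed set 14. Sample titles give every library the batch letter D, whereas the descriptions of the set 11 libraries give C, and replicate numbers were taken from the titles. The 280 µg/mL doses were set by growth inhibition, per the labels' dose rule. The vehicle libraries carry a set number of their own, so in every comparison with vehicle the set and the extract cannot be told apart, whereas the doses of 1 extract belong to 1 set. Nothing in the labels says that replicates came from separate cultures, so p-values reflect how far the libraries of a group spread, and that spread may be technical.

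The start of the transcript was read for the members on which the results turn, since a TOP motif is a property of the first base of the message. RefSeq starts on GRCh38.p14 were matched for 72 of the 91 members. Each line gives 30 bases, 10 before and 20 from the start, in the direction of transcription. Capitals mark a run that begins with C exactly at the RefSeq start and goes on with at least 4 C or T. RPL39, RPLP1, RPS28, RPS26, RPL7L1, RPS27L, RPL26L1 and RPL22 are shown because their levels are described below, RPLP0, RPL3 and RPS6 as abundant members of the stalk and of each subunit, and RPL22L1 as the paralog of RPL22.
RPLP0 (chr12:120201092-120201121, minus strand): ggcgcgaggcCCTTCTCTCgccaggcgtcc
RPLP1 (chr15:69452808-69452837, plus strand): ggcgcgagagCCCCTTTCCTCagctgccgc
RPL39 (chrX:119791611-119791640, minus strand): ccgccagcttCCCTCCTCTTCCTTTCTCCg
RPL3 (chr22:39319604-39319633, minus strand): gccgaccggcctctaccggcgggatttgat
RPS6 (chr9:19380217-19380246, minus strand): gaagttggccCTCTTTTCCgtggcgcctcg
RPS28 (chr19:8321486-8321515, plus strand): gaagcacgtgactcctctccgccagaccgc
RPS26 (chr12:56041908-56041937, plus strand): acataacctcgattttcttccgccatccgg
RPL22 (chr1:6199576-6199605, minus strand): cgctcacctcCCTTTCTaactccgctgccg
RPL22L1 (chr3:170870176-170870205, minus strand): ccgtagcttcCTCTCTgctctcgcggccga
RPS27L (chr15:63157458-63157487, minus strand): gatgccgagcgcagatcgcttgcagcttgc
RPL7L1 (chr6:42879606-42879635, plus strand): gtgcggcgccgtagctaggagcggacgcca
RPL26L1 (chr5:172958719-172958748, plus strand): tccaggggtcggcgaacgaaacgcggagct
RPL26L1, other start (chr5:172958870-172958899, plus strand): ggcggcggccacaaacccgcaggcacgccg

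Such a run stood at a start of 46 of the 62 matched subunit and stalk genes and of 2 of the 8 matched paralogs, against 5.14% of the 27305 genes in the whole promoter table. RPL39 had the longest run of those printed, 19 bases, and RPS27L, RPL7L1 and RPL26L1 had none at these starts. The printed starts of RPS28 and RPS26 lie a few bases from a pyrimidine stretch, and no match says only that the letters are not at that base. In the vehicle libraries the 77 subunit and stalk genes held 10.0 ± 0.213% of transcripts (SD, n = 3) on a scale per transcript length (counts divided by the median length of a gene's basic GENCODE 29 transcripts and scaled to 1000000, called TPM here). On that scale their levels ran from 251 TPM for RPS29 to 4056 TPM for RPL37A, with a median of 1241 and quartiles of 872 and 1613. Paralogs lay below that range or near its lower end. RPS27L stood at 333 ± 4.70 TPM, RPL36AL at 278 ± 8.47, RPL7L1 at 124 ± 3.00, RPL26L1 at 52.5 ± 1.51, RPL22L1 at 49.0 ± 0.711 and RPL3L at 0.394 ± 0.112 (SD, n = 3 each). RSEM divides reads that match several genes, and 78 members have processed pseudogene rows, 1597 in all, so values of close copies are uncertain. The pseudogene rows together held 0.0382 to 0.0707% of the counts of a library.

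Library totals ran from 18015555 to 29549531 expected counts. The hepatocyte genes ALB, APOA1, APOB, TTR, SERPINA1, FGB, AFP and HNF4A were at or above 1 count per 1000000 counts (CPM) in every library. Of the leukocyte markers PTPRC and CD3E were under 1 CPM in every library and LYZ reached 1654 CPM. Of 4 fibroblast markers COL1A2 and DCN were under 1 CPM in every library, COL1A1 reached 3.14 and PDGFRB 16.4 CPM, and of 3 endothelial markers CDH5 was under 1 CPM in every library while PECAM1 reached 4.71 and VWF 1.52 CPM. Levels below are TMM-scaled CPM, which put libraries on a common scale for the bulk of genes. The 77 genes summed to 32742 to 70033 CPM over the 60 libraries, with a median of 45185. The 2 extremes were single libraries, replicate 3 of the Bupleuri low dose at 70033 CPM and the Banhasasim-tang low dose at 32742 CPM, and the other 58 libraries lay between 39190 and 50928 CPM. Results that rest on those libraries are given with and without them. In bulk RNA a change in the number of cells of a kind and a change in RNA per cell cannot be told apart.

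**Figure D1:**
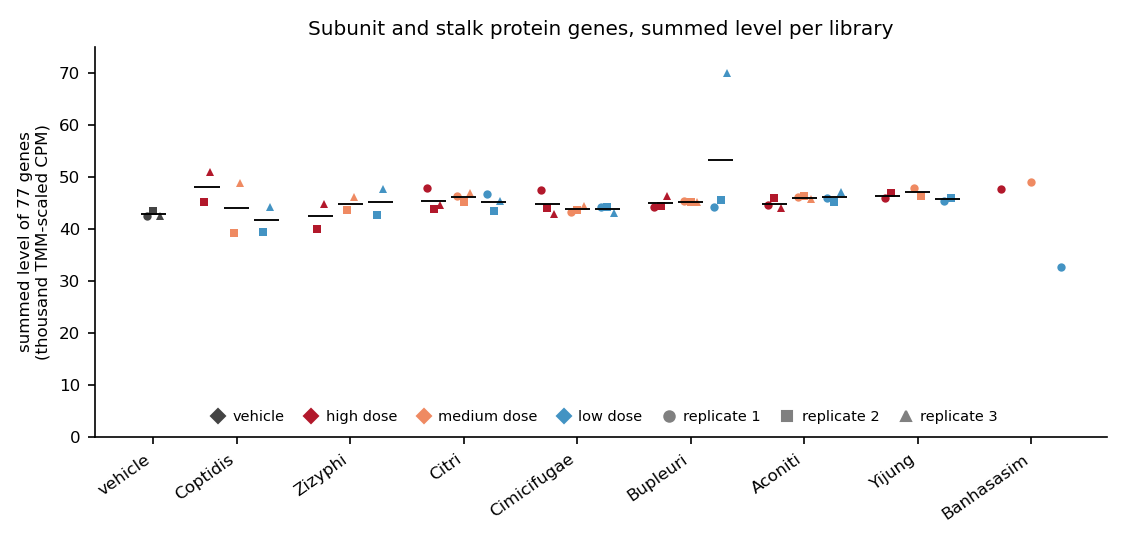
Summed TMM-scaled CPM of the 77 subunit and stalk genes (vertical axis) in each of the 60 libraries, grouped by vehicle, extract and dose along the horizontal axis, with 1 point per library and a bar at each group mean. The vehicle libraries lie between 42496 and 43527 CPM, and the 2 libraries that stand apart are replicate 3 of the Bupleuri low dose and the Banhasasim-tang low dose.

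The summed level of the vehicle was 42857 ± 581 CPM (SD, n = 3). Group means of the extracts at the high dose ran from 42455 CPM in Zizyphi to 48033 ± 4094 CPM in Coptidis (SD, n = 2) among the 7 extracts with replicates. The Coptidis means lay in order of dose, from 48033 CPM at the high dose to 43975 ± 6766 at the medium and 41780 ± 3374 at the low dose (SD, n = 2 each). The ranges of the high and low doses do not overlap, and the medium dose overlaps both. The ranking turns with the scaling. The TMM ratio to vehicle at the high dose was 1.12 in Coptidis, 1.08 in Yijung-tang, 1.06 in Citri and 1.05 in Aconiti. On CPM of the library total it was 1.04, 1.07, 1.06 and 1.07 in the same order, with Coptidis the lowest of these 4. In set 11 replicate 3 lay above replicate 2 in 6 of 6 groups, by a ratio of 1.06 to 1.24. In set 12 replicate 3 was above replicate 2 in 4 of 6 groups and in set 13 in 4 of 6.

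Coptidis Rhizoma, whose main alkaloid is berberine, had the most members called against vehicle at the high dose among the 7 extracts with replicates in the shared fit, whereas with a separate fit of each comparison 46 were called in Coptidis (76% of all genes called) and 54 in Yijung-tang (33.4%). In the shared fit, of 87 members 28 rose and 6 fell at 280 µg/mL, where 67.5% of all 16675 genes tested were called, 34.5% higher and 33% lower. Their median log2 fold change was 0.13, beside 0.00 for all genes tested. Large subunit genes gave 18 rises and 2 falls of 43 (median 0.19), small subunit genes 7 rises and 1 fall of 31 (0.11), the stalk 2 rises of 3 (0.24) and the tested paralogs 1 rise and 3 falls of 7 (-0.06). Without replicate 3 of the Coptidis high dose fewer members were called and the median was 0.03. The share of all genes called also moved with single libraries. With the library of the highest summed level (Bupleuri low dose, replicate 3) taken out of the fit, 35 rose and 7 fell, with 70.7% of all genes called.

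RPL39, a small protein at the wall of the exit tunnel, was at 259, 280.4 and 281 CPM in vehicle and at 399.7 and 460.0 CPM at the Coptidis high dose. The groups do not overlap, and RPL39 rose by 0.66 ± 0.16 on the log2 scale (SE; edgeR adjusted p = 0.00051). At the medium dose the replicates parted widely, at 242 and 439 CPM, and at the low dose RPL39 was at 274 and 276 CPM, inside the vehicle range. RPLP1, an acidic protein of the stalk, was at 429, 473 and 457 CPM in vehicle and at 584 and 728 CPM at the Coptidis high dose. Both treated libraries lie above every vehicle library, with a log2 fold change of 0.54 ± 0.16 (edgeR adjusted p = 0.00302). RPL28, a large subunit protein, was at 329, 347 and 352 CPM in vehicle and at 478 and 536 CPM at the high dose, a rise of 0.57 ± 0.10 (edgeR adjusted p = 2e-06). RPL4, a large subunit protein whose loop lines the exit tunnel, was at 1165, 1182 and 1155 CPM in vehicle and at 1503 and 1596 CPM at the high dose, a rise of 0.41 ± 0.05 (edgeR adjusted p = 3e-09). RPL10, which joins the subunit late in its assembly, rose by 0.46, RPL29 by 0.42 and RPL8 by 0.41.

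Members of each role read in every comparison are given next. RPLP0, the base of the stalk, was at 1013, 1100.2 and 1094 CPM in vehicle and at 1224 and 1299 CPM at the Coptidis high dose, a rise of 0.24 ± 0.09 (edgeR adjusted p = 0.0207). RPL3, near the peptidyl transferase centre, was at 1105, 1101 and 1132 CPM in vehicle and at 1274 and 1400 CPM, a rise of 0.27 ± 0.06 (edgeR adjusted p = 7.4e-05). In both genes each treated library lies above each vehicle library. Of the pair that binds MDM2, RPL11 was at 532, 503 and 535 CPM in vehicle and at 583 and 641 CPM at the high dose, a rise of 0.23 ± 0.08 (edgeR adjusted p = 0.0082), while RPL5 gave 0.05 ± 0.08 (edgeR adjusted p = 0.583). In the small subunit RPS6, the substrate of the S6 kinases, gave 0.09 ± 0.08 and RPS3, at the entry of the messenger RNA channel, 0.01 ± 0.11 (edgeR adjusted p = 0.357 and 0.929).

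The falls were RPL3L, RPS27L, RPL36AL, RPS26, RPL22 and RPL6. RPS26, which lies at the exit of the messenger RNA channel, was at 199, 193 and 182 CPM in vehicle and at 139.5 and 156 CPM at the Coptidis high dose, a change of -0.37 ± 0.11 (edgeR adjusted p = 0.00434). At the low dose of the same set it was at 178 and 210.4 CPM, and at the Zizyphi high dose at 203 and 216 CPM. RPS26 was thus lower at the Coptidis high dose than in each of those 3 groups, by -0.39 ± 0.12 against the low dose (edgeR adjusted p = 0.00587) and by -0.50 ± 0.12 against Zizyphi (edgeR adjusted p = 0.00057). RPL22, a large subunit protein, was at 333, 337 and 313 CPM in vehicle and at 246 and 279 CPM at the high dose, a change of -0.32 ± 0.09 (edgeR adjusted p = 0.00168). Per length, the mean of RPL22 was 417 TPM in vehicle and 318, 297 and 280 TPM at the Coptidis high, medium and low doses. RPL36AL gave 278, 204, 176 and 178 TPM in the same order. Both means were thus below vehicle at every Coptidis dose, and lower at the low than at the high dose. RPL6 was at 647, 645 and 664 CPM in vehicle, 641 and 695 CPM at the low dose, and 509 and 546 CPM at the high dose. It fell by 0.30 against vehicle and by 0.34 against the low dose (edgeR adjusted p = 0.0002 and 0.00015). RPL3L, a muscle-enriched paralog of RPL3, was under 1 CPM throughout.

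The log2 ratios of the Coptidis libraries to vehicle varied with transcript length and GC content. At the Coptidis high dose the length slopes described next were 0.149 and 0.203, above the range of the 50 libraries given with them. Outside those 50, the length slope was 0.280 in the Banhasasim-tang low dose and 0.183 in replicate 2 of the Coptidis medium dose. The GC slopes of the Coptidis high dose were 0.136 and 0.143, inside the range of the 50. The lowest GC slopes of that range, -0.011 to 0.018, were those of the vehicle libraries, whose own mean is the reference of the ratio. They therefore lie near 0 by construction. Every library of every extract had a GC slope of 0.061 or more, so a positive GC slope was not particular to Coptidis. Over genes other than members, the log2 ratio of a Coptidis library to the vehicle mean rose by 0.05 to 0.20 per doubling of transcript length and by 0.11 to 0.28 per 10 points of GC, against slopes of -0.02 to 0.07 and -0.01 to 0.19 in the 50 libraries of the other groups with replicates less replicate 3 of the Bupleuri low dose. The subunit and stalk genes are short, with a median of 750.5 bases against 2230.0 for all tested genes. With offsets for length and GC in each library 66 members were called higher and 2 lower at the Coptidis high dose (69.9% of all genes called, member median 0.32), and RPL36AL, RPS26, RPL22 and RPL6 were not called against vehicle (edgeR adjusted p = 0.53, 0.14, 0.38 and 0.3). The falls of RPS26 and RPL6 against the low dose were still called with offsets (edgeR adjusted p = 0.0042 and 7.6e-07). The share of counts in the 2 mitochondrial ribosomal RNA genes was 5.41 to 5.68% at the Coptidis high dose, 10.2 to 11.5% at the medium dose and 11.6 to 11.8% at the low dose, against 2.31 to 3.51% in those 50 libraries. In Banhasasim-tang, outside those 50, this share was 11.8% at the high, 8.01% at the medium and 0.485% at the low dose. Its part in the member levels was not tested.

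**Figure D2:**
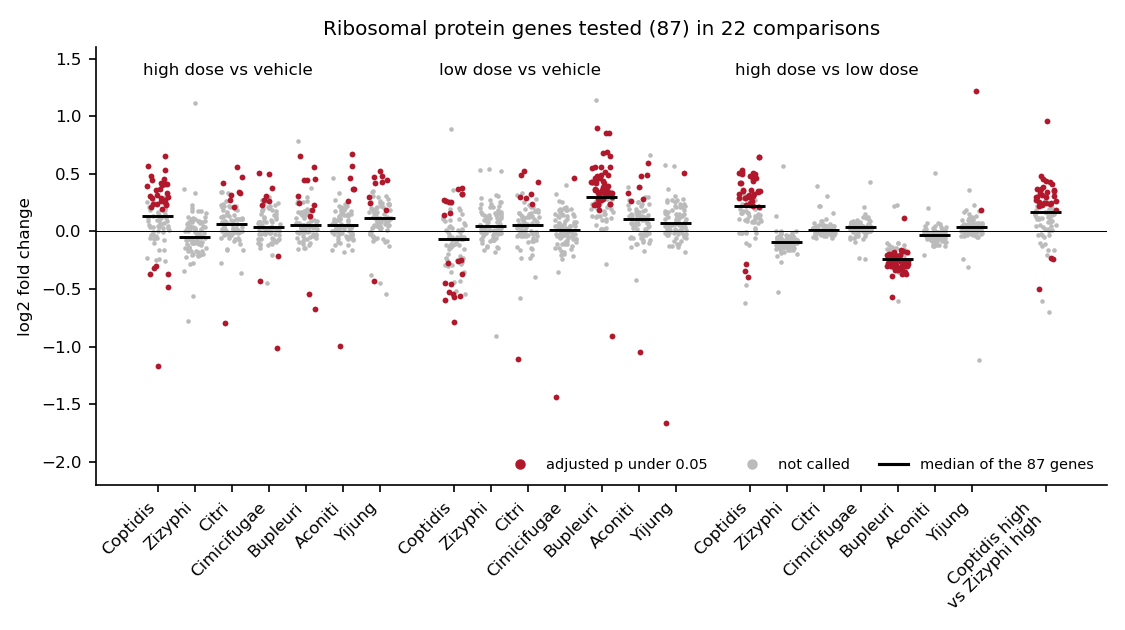
Log2 fold change of each tested member (vertical axis) in the 22 tested comparisons along the horizontal axis, with 1 point per member, red where the adjusted p is under 0.05 and grey where not, and a bar at the median of the members. The Coptidis medians at the high dose are 0.13 against vehicle and 0.22 against the low dose, and the Bupleuri median is -0.24 at the high against the low dose.

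Within the Coptidis series, where both doses share a set, 34 members were higher and 3 lower at the high than at the low dose, with 60.2% of all genes called (30.9% higher, 29.3% lower) and a member median of 0.22 against -0.01 for all genes. RPL38, a large subunit protein, was at 331 and 399 CPM at the high dose and at 230.5 and 235 CPM at the low dose, a difference of 0.64 ± 0.15 (edgeR adjusted p = 0.00036), with vehicle at 302, 297 and 293 CPM between them. RPL39 differed by 0.64 ± 0.18 (edgeR adjusted p = 0.00221). RPS25, a small subunit protein needed by some viral internal ribosome entry sites, was at 336 and 438 CPM at the high dose and at 257 and 276 CPM at the low dose, a difference of 0.54 ± 0.15 (edgeR adjusted p = 0.00262). The 3 members lower at the high dose were RPS26, RPL6 and RPS19BP1. The count of 37 fell without replicate 3 of the high dose or replicate 2 of the low dose. The share of all genes called also moved with single libraries. With 1 library left out at a time the member median ranged over 0.11 to 0.31. With offsets 68 were higher and 2 lower (63.1% of all genes called). With that Bupleuri low-dose library taken out of the fit 41 were higher and 4 lower, with 64.1% of all genes called.

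The Coptidis low dose against vehicle split the members, with 10 higher and 12 lower, 33.2% of all genes called (17.1% higher, 16.1% lower), and a member median of -0.07. The members called lower included RPL37 (-0.59), RPS25 (-0.56), RPL35A (-0.56), RPL37A (-0.54) and RPS27 (-0.45). RPL37, a zinc-binding large subunit protein, was at 542, 585 and 583 CPM in vehicle and at 371 and 384 CPM at the low dose. Those called higher included RPL13 (0.38), RPS2 (0.33) and RPL8 (0.32). The median GC content was 57.5% in the 10 called higher and 44.5% in the 12 called lower. With offsets 25 members were higher and 11 lower (27.3% of all genes called), with a median of 0.04. The count of 22 was 42 (14 higher and 28 lower, with 40.3% of all genes called) without replicate 3 of the Bupleuri low dose. It fell without replicate 1 of the vehicle or replicate 3 of the Coptidis low dose. The share of all genes called also moved with single libraries. With 1 library left out at a time the member median ranged over -0.16 to 0.012.

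**Figure D3:**
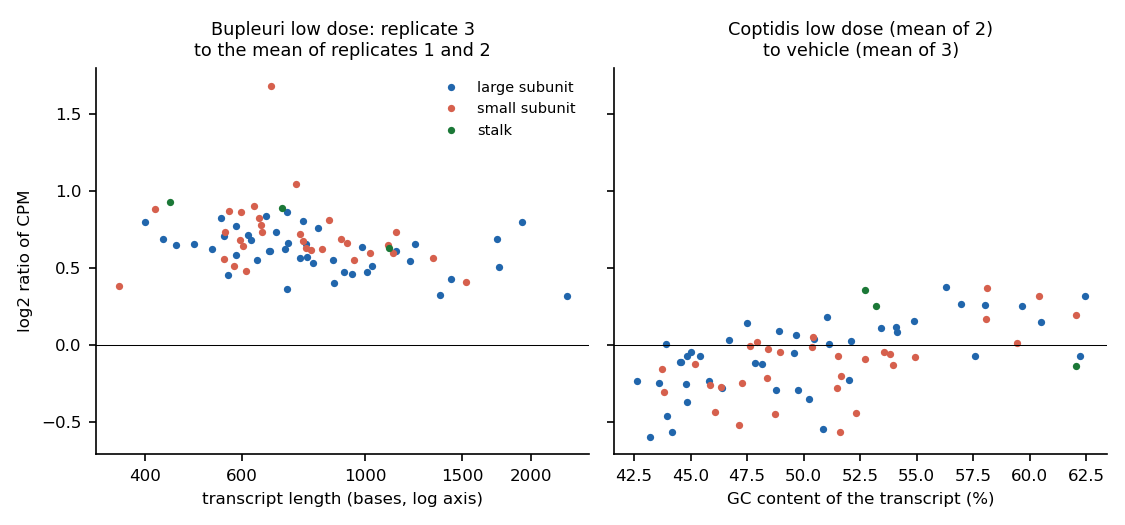
Log2 ratio of each subunit and stalk gene (vertical axes) for replicate 3 of the Bupleuri low dose against the mean of its other replicates by transcript length in bases (left, log axis), and for the Coptidis low dose against vehicle by GC content in percent (right), with 1 point per gene coloured by role. On the left the subunit and stalk genes lie above 0, and on the right the ratio is higher in members of higher GC content.

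The Coptidis and Zizyphi high doses, 280 and 500 µg/mL in the same set, are set side by side because both carry the set number 11, while the doses differ. At the Coptidis dose 28 members were higher and 3 lower than at the Zizyphi dose, with 64.4% of all genes called (33% higher, 31.4% lower) and a member median of 0.17. RPL4, at 1503 and 1596 CPM in Coptidis, was at 1137 and 1159 CPM in Zizyphi, a difference of 0.44 ± 0.06 (edgeR adjusted p = 7.6e-09). RPL7L1 differed by 0.45 ± 0.05 (edgeR adjusted p = 3.5e-10) and RPL22L1 by 0.48 ± 0.19 (edgeR adjusted p = 0.0284). RPS26, RPL6 and RPL22 were the members called lower, at -0.50, -0.24 and -0.23. With offsets 67 members were higher and 1 lower (68.2% of all genes called), and RPL6 and RPL22 were not called. With replicate 3 of the Bupleuri low dose taken out 36 were higher and 4 lower (68.4%). The count of 31 fell without replicate 3 of the Coptidis high dose or replicate 2 of the Zizyphi high dose. The share of all genes called also moved with single libraries. With 1 library left out at a time the member median ranged over 0.045 to 0.25.

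Zizyphi Fructus itself had no member called by edgeR in the shared fit in the 3 comparisons of its own doses and vehicle, while other fits called some. Against vehicle 0 members were called at the high dose, with 3.63% of all genes called, and 0 at the low dose, with 2.79% called. At an unadjusted p under 0.05 there were 8 and 10 such members, and DESeq2 called 0 and 4 (5.03% and 3.92% of all genes called). The share of all genes at an unadjusted p under 0.05 was not computed, here or in later comparisons. Between its high and low doses 0 members were called, with 0.006% of all genes called, 0 members at an unadjusted p under 0.05 and 0 by DESeq2 (0.006% of all genes called). The member medians were -0.04, 0.05 and -0.09. A separate fit of each comparison called 20 members at the high dose (19.3% of all genes called) and 17 at the low dose (8.68%) against vehicle. With no filter 10 and 14 were called (2.56% and 2.06%), and with length and GC offsets 5 and 7 (1.38% and 1.23%). With replicate 3 of the Bupleuri low dose taken out, 3 members were higher and 4 lower at the Zizyphi high dose (10.3% of all genes called) and 10 higher and 0 lower at the low dose (7.73%).

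The other extracts are given next, in the shared fit and against vehicle. Beside each count stand the shares of all tested genes called, called higher and called lower. At the high dose Citri had 8 members higher and 1 lower (14.2%, 7.73% and 6.51%, member median 0.07). Cimicifugae had 7 and 3 (22.2%, 12.1% and 10%, median 0.04), Bupleuri 10 and 2 (38.9%, 19.9% and 19.1%, median 0.06) and Aconiti 6 and 1 (23.2%, 11.2% and 12%, median 0.06). Yijung-tang had 9 and 1 (17.3%, 9.49% and 7.84%, median 0.11). At the low dose Citri had 7 higher and 1 lower (15.9%, 8.38% and 7.56%, median 0.06) and Cimicifugae 1 and 1 (6.1%, 2.95% and 3.15%, median 0.02). Aconiti had 7 and 1 there (9.9%, 5.51% and 4.38%, median 0.11) and Yijung-tang 1 and 1 (1.69%, 1.2% and 0.486%, median 0.08). With replicate 3 of the Bupleuri low dose taken out of the fit more members were called, namely at the high dose 20 higher and 4 lower in Citri (22.2% of all genes called), 17 and 4 in Cimicifugae (30.2%), 21 and 5 in Bupleuri (45.6%), 17 and 4 in Aconiti (31.4%) and 24 and 2 in Yijung-tang (24.8%). Among low doses they were 18 and 5 in Citri (24.2%), 8 and 4 in Cimicifugae (13.1%), 20 and 2 in Aconiti (17.6%) and 9 and 1 in Yijung-tang (4.87%).

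The counts also moved with single libraries of the groups compared, and so did the share of all genes called. With 1 library dropped at a time, the high-dose share ranged over 7.77 to 22.2% in Citri, 16.2 to 30.2% in Cimicifugae and 33.4 to 45.6% in Bupleuri. The low-dose share ranged over 7.36 to 24.2% in Citri, 2.38 to 13.1% in Cimicifugae and 5.0 to 17.6% in Aconiti. Each upper end came from dropping the library of the highest summed level, as given above. At the high dose the members called without replicate 1 of the vehicle were 3 in Citri, 3 in Cimicifugae, 6 in Bupleuri and 6 in Yijung-tang. Without replicate 2 of the vehicle they were 5 in Citri and 6 in Cimicifugae, and without replicate 3 of the vehicle 3 in Citri and 7 in Bupleuri. Citri had 2 without replicate 1 and 5 without replicate 3 of its high dose, and Cimicifugae 3 without replicate 1. Bupleuri had 7 without either replicate 2 or replicate 3 of its high dose, and Yijung-tang 4 without replicate 1 and 2 without replicate 2. For the low dose Citri had 1 without replicate 1 of the vehicle, 3 without replicate 1 and 5 without replicate 3 of the low dose. Cimicifugae had 1 without any one of its 3 low-dose or the 3 vehicle libraries. Aconiti had 4 without replicate 2 of the low dose and 3 without any other one of the 6 libraries. Yijung-tang had 1 without any one of the vehicle libraries and 0 without either low-dose library.

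The larger calls at the high dose are given side by side for RPL39, RPLP1, RPS28 and RPL26L1, chosen after their values were seen, in comparisons that all share the 3 vehicle libraries. The log2 fold change of RPL39 was 0.56 in Citri, 0.50 in Cimicifugae, 0.65 in Bupleuri, 0.67 in Aconiti and 0.52 in Yijung-tang (edgeR adjusted p = 0.00825, 0.0118, 0.00041, 0.00072 and 0.0198). For RPLP1 it was 0.47, 0.51, 0.56, 0.56 and 0.47 in the same order (edgeR adjusted p = 0.0226, 0.00821, 0.00171, 0.00316 and 0.0343). In Zizyphi, where no member was called in the shared fit, the values of RPL39 and RPLP1 were 0.33 and 0.37 at the high dose (edgeR adjusted p = 0.262 and 0.195). RPL39 was at 416, 434 and 439 CPM at the Bupleuri high dose, at 425, 447 and 432 CPM at the Aconiti high dose and at 407 and 375 CPM at the Yijung-tang high dose, all above the vehicle range of 259 to 281 CPM. Its low-dose libraries in the same extracts were at 388 to 691, 382 to 443 and 399 to 411 CPM. RPS28, a small subunit protein near the mRNA channel, was at 186, 195 and 209 CPM in vehicle, at 258, 278 and 271 CPM at the Bupleuri high dose and at 261, 297 and 258 CPM at the Aconiti high dose. The log2 fold changes of RPS28 were 0.45 ± 0.12 and 0.46 ± 0.12 (edgeR adjusted p = 0.00252 and 0.00366). RPL26L1, a paralog of RPL26, was at 19.97, 20.9 and 20.5 CPM in vehicle and at 26.9, 27.9 and 29.6 CPM at the Bupleuri high dose, a rise of 0.46 ± 0.10 (edgeR adjusted p = 0.00025). Between the high and low doses of Citri, Cimicifugae, Aconiti and Yijung-tang, which share a set, these 4 genes were not called, with log2 differences of -0.04 to 0.17. In the comparisons with vehicle the set and the extract cannot be told apart.

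**Figure D4:**
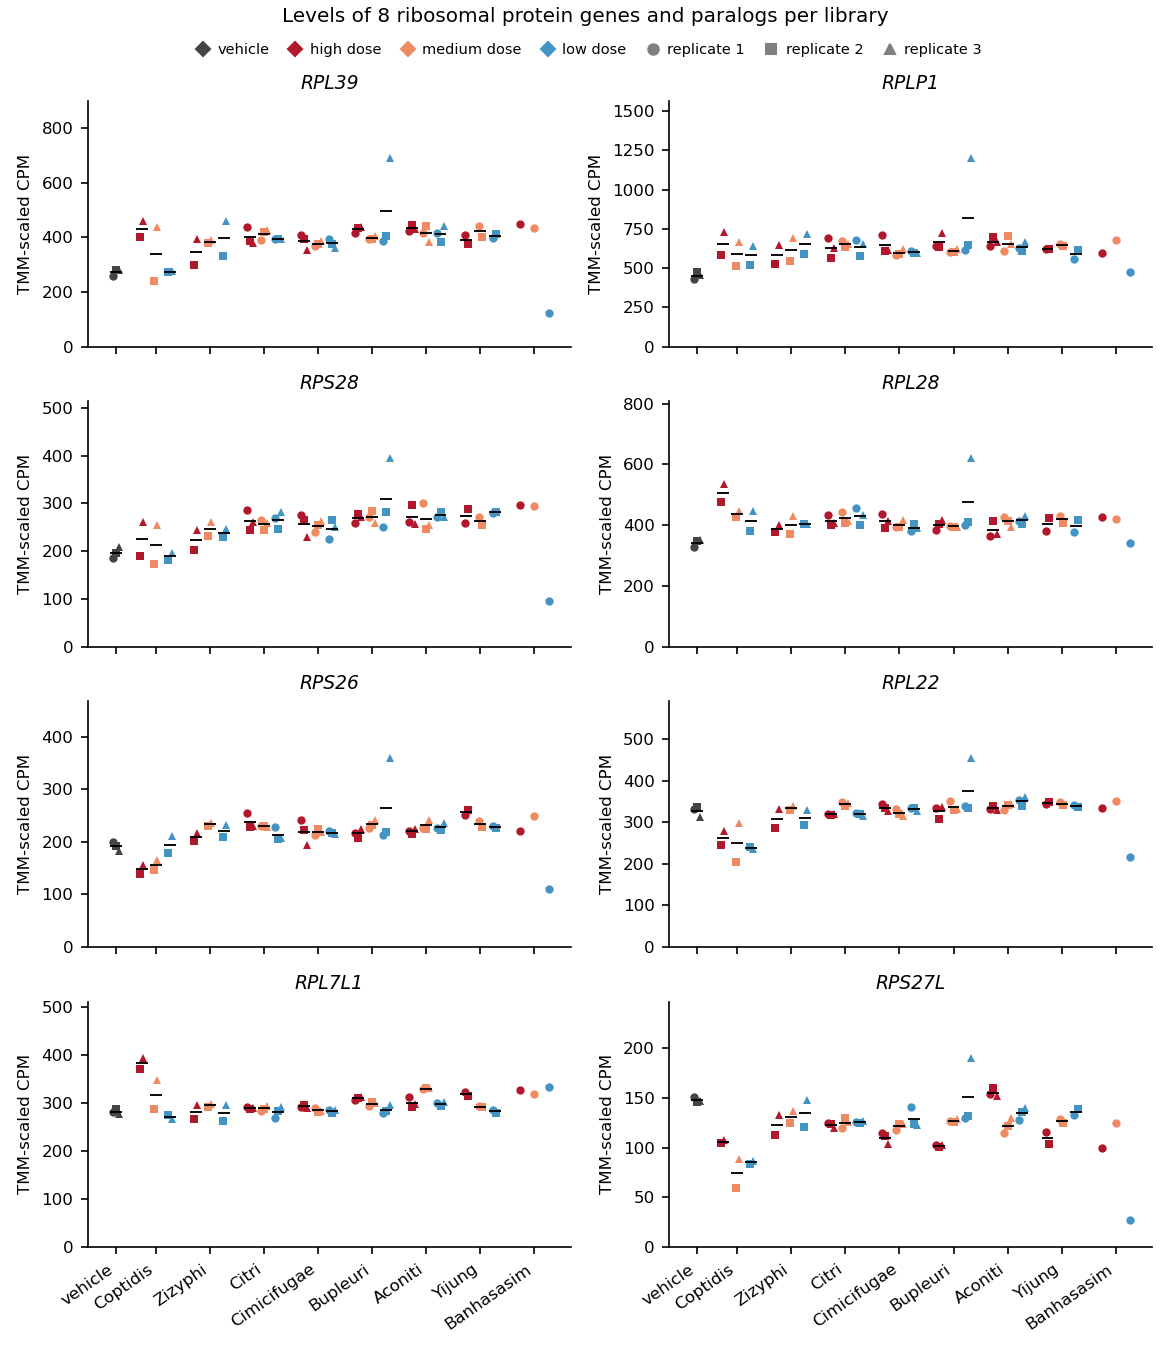
TMM-scaled CPM (vertical axes, each starting at 0) of RPL39, RPLP1, RPS28, RPL28, RPS26, RPL22, RPL7L1 and RPS27L in every library, by vehicle and by extract at the high, medium and low dose along the horizontal axis, with 1 point per library and a bar at each group mean. RPL39 and RPLP1 lie above vehicle in most treated libraries, and RPS27L at the Bupleuri high dose lies at 100.2 to 103 CPM, below its medium and low doses.

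Among the paralogs RPS27L, a paralog of RPS27, was lower than vehicle at several high doses. It was at 151, 146 and 147 CPM in vehicle. At the Bupleuri high dose it was at 103, 100.2 and 102 CPM, at the medium dose at 127, 126 and 129 CPM, and at the low dose at 129.6, 132 and 190.0 CPM. High-dose libraries lie below every medium and low-dose library, and RPS27L fell by 0.54 ± 0.10 against vehicle (edgeR adjusted p = 1.3e-05) and by 0.57 ± 0.10 against the low dose (edgeR adjusted p = 6.6e-06). Without replicate 3 of the low dose the latter was -0.37 (edgeR adjusted p = 0.000734), and with a separate fit it was -0.57 and not called (edgeR adjusted p = 0.0645). RPS27L also fell at the high doses of Coptidis (-0.48 ± 0.11, edgeR adjusted p = 0.00019), Cimicifugae (-0.43 ± 0.10, edgeR adjusted p = 0.00089) and Yijung-tang (-0.43 ± 0.11, edgeR adjusted p = 0.00377). In Aconiti it was at 154, 160.0 and 152 CPM at the high dose, just above the vehicle range. In Coptidis the high dose lay above the others, with 105 and 107 CPM at the high dose, 59.6 and 88.6 at the medium and 84.04 and 86.96 at the low dose, where RPS27L fell by 0.79 against vehicle (edgeR adjusted p = 4.1e-07). Relative to RPS27 per length, RPS27L stood at 12.7 ± 0.222% in vehicle, 8.35 ± 0.429% at the Bupleuri high dose (SD, n = 3 each), 8.80 ± 0.556% at the Coptidis high dose and 7.85 ± 0.530% at the Yijung-tang high dose (SD, n = 2 each). Every treated group with replicates had a mean below vehicle, from 7.61% at the Coptidis medium dose to 11.8% at the Aconiti high dose, and the low doses lay at 9.57 to 11.1%.

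RPL7L1, a paralog of RPL7 that acts in ribosome assembly, was higher at some high doses. It was at 281, 287 and 277 CPM in vehicle, at 371 and 393 CPM at the Coptidis high dose, at 287 and 347 CPM at the medium dose and at 274 and 266 CPM at the low dose. The high dose exceeded vehicle by 0.44 ± 0.05 (edgeR adjusted p = 4.2e-11) and the low dose by 0.50 ± 0.05 (edgeR adjusted p = 3.9e-11). In Yijung-tang RPL7L1 was at 322 and 315 CPM at the high dose, 292 and 292 at the medium and 285 and 279.7 at the low dose, a difference of 0.18 ± 0.05 between high and low (edgeR adjusted p = 0.0227). In Bupleuri it was at 307, 309 and 312 CPM at the high dose and at 279, 283 and 295 CPM at the low dose, a difference of 0.11 ± 0.04 (edgeR adjusted p = 0.0334) that came to -0.00 with offsets and was not called with a separate fit (edgeR adjusted p = 0.391). RPL22L1, which substitutes for RPL22 in ribosomes, was at 37.1, 35.9 and 35.99 CPM in vehicle and at 35.1 and 44.5 CPM at the Coptidis high dose, while RPL22 fell there. RPL22L1 itself was called at 0 of the 7 high doses against vehicle in the shared fit. The level of RPL22L1 relative to RPL22 per length was 11.8 ± 0.447% in vehicle (SD, n = 3) and 16.0 ± 1.25% at the Coptidis high dose (SD, n = 2). It was 17.8 ± 3.13% at the medium and 12.7 ± 0.196% at the low dose (SD, n = 2 each). At that low dose RPL22L1 was at 35.5 TPM, against 49.0 TPM in vehicle. The read-through RPS10-NUDT3, at a mean of 8.52 CPM in vehicle, fell at the high dose by 0.80 in Citri, 1.01 in Cimicifugae, 0.67 in Bupleuri and 1.00 in Aconiti, in comparisons that share the vehicle libraries. At the low dose it fell by 1.10, 1.43, 0.91 and 1.04 in the same extracts and by 1.67 in Yijung-tang. Its reads cannot be separated from those of RPS10 where the exons are shared, and read-through symbols lie outside the rule for named genes.

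Bupleuri Radix had its largest count at the low dose, a count that 1 library decides. Against vehicle 54 members were higher and 1 lower, with 22.3% of all genes called (11.8% higher, 10.5% lower) and a member median of 0.30. RPLP1 was at 618 and 645 CPM in replicates 1 and 2 and at 1202 CPM in replicate 3, and RPL39 at 388, 406 and 691 CPM. All 77 subunit and stalk genes were higher in replicate 3 than in replicate 2. In that library the 77 genes held 7.10% of counts, against 3.67 to 4.83% in the 58 libraries other than it and the Banhasasim-tang low dose, and the log2 ratio of other genes to vehicle fell by 0.30 per doubling of transcript length. Its part in the result was measured by leaving it out: 10 members were then higher and 3 lower than in vehicle, with 12.3% of all genes called. With offsets and all libraries 41 were higher and 1 lower (10.6%). Between the high and low doses of Bupleuri 1 member was higher and 41 lower with all libraries (40.2% of all genes called, 20.2% higher and 20% lower, member median -0.24). Of those 42 members 34 overlapped between the groups, and the share of all called genes that overlapped was not computed. The count of 42 was 21 and 24 without replicates 1 and 2 of the high dose and 77 and 71 without replicates 1 and 2 of the low dose. Over the fits with 1 library left out the share of all genes called was 34.4 to 45.3%. With offsets 23 were lower and 0 higher (42.7%). Without replicate 3 of the low dose (35.1% of all genes called) the 2 members called were RPS27L, lower at the high dose, and RPL7L1, higher by 0.13 (edgeR adjusted p = 0.0156), and the median was 0.01. With a separate fit and all libraries edgeR called 0 members at the low dose against vehicle (0% of all genes called, 13 members at an unadjusted p under 0.05) and 0 between the doses (11.5%, 1 member at an unadjusted p under 0.05). In contrast, DESeq2 in the shared fit called 58 and 46 (23% and 38.5% of all genes called).

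The remaining dose comparisons gave few calls. Between the high and low doses 0 members were called in Citri (0.78% of all genes called, median 0.02), 0 in Cimicifugae (7.14%, 0.04) and 0 in Aconiti (14.6%, -0.03) by edgeR in the shared fit. At an unadjusted p under 0.05 there were 0, 1 and 1 members, and DESeq2 called 0, 0 and 0 (1.1%, 7.51% and 14.4% of all genes called). A separate fit of each comparison called 1, 3 and 8 members (2.22%, 13.8% and 25.5% of all genes called). Without replicate 3 of the Bupleuri low dose 1 was called lower in Cimicifugae (12.7%) and 2 lower in Aconiti (22.2%). Without replicate 1 of the Aconiti high dose 1 was called in Aconiti, where 9.66 to 22.2% of all genes were called over the fits with 1 library left out. In Yijung-tang 2 were higher, RPL7L1 and RPS10-NUDT3, with 7.29% of all genes called (3.98% higher, 3.31% lower) and a median of 0.04. These calls did not hold when any 1 of the 4 libraries was left out, and the share of all genes called also moved with single libraries. With replicate 3 of the Bupleuri low dose taken out 2 were higher and 1 lower (12.1%).

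Genes that make or accompany the ribosome were read from lists chosen with earlier results of these data known. At the Coptidis high dose against vehicle, the 18 other genes with a TOP message gave 10 rises and 1 fall (median 0.23). Beside the counts of these lists, 67.5% of all genes were called there, 34.5% higher and 33% lower. Among them EEF2, the translocase of elongation, rose by 0.82, EEF1A1, which delivers aminoacyl-tRNA, by 0.58 and RACK1, a scaffold on the small subunit, by 0.56. Of 78 mitochondrial ribosomal protein genes 7 rose and 44 fell (median -0.34), among them MRPL11 at -1.35 and MRPL17 at -0.98, while MRPS6 rose by 1.38. Of 24 ribosome biogenesis genes 7 rose and 9 fell (median 0.02). The box C/D proteins NOP56 and FBL fell by 0.83 and 0.76, and RRP12 rose by 0.91. Of 13 tested snoRNA host genes 6 rose and 2 fell, with ZFAS1 at 0.96 and SNHG1 at -0.89. Of 14 genes of mTORC1 and TOP message control 7 rose and 5 fell. SESN2 and DDIT4, inhibitors of mTORC1 signalling, rose by 3.07 and 2.42, and EIF4EBP1, the translation repressor that mTORC1 phosphorylates, by 0.77. In the list of ribosomal stress, CDKN1A, an inhibitor of cyclin-dependent kinases, rose by 3.00 and MDM2 by 0.74. Of 14 proteasome core genes, another large complex, 1 rose and 6 fell (median -0.09).

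Values of the same lists in other comparisons follow. Against the low dose the Coptidis high dose had 11 of 18 TOP genes higher and 0 lower, 6 of 78 mitochondrial genes higher and 37 lower, and 4 of 24 biogenesis genes higher and 8 lower, where 60.2% of all genes were called, 30.9% higher and 29.3% lower. In Yijung-tang 11 of 24 biogenesis genes rose and 0 fell against vehicle (median 0.20), with 9.49% of all genes called higher and 7.84% lower. Against the low dose 10 rose and 0 fell (median 0.19), with 3.98% and 3.31% of all genes called, and 0 of 77 subunit and stalk genes were called in the shared fit. There RRP9 differed from the low dose by 0.37, RRS1 by 0.31 and RRP12 by 0.30, and the median of the subunit and stalk genes was 0.03. The difference between these lists was not tested.

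Banhasasim-tang had 1 library per dose, so its values are ratios to the vehicle mean with no test. At the high and medium doses the median log2 ratio of the 77 genes was 0.15 and 0.18, and 64 and 72 of the 77 (83.1% and 93.5%) lay above all 3 vehicle libraries, as did 38.1% and 34.3% of all genes tested. These values rest on TMM scaling. Of the library total the 77 genes held 4.36% at the high dose, inside the vehicle range of 4.27 to 4.41%, and 4.61% at the medium dose. RPL39 was at 448.8 and 434.6 CPM at these doses and RPS28 at 297 and 295 CPM. Of 87 members 0 were at least 2-fold higher and 1 at least 2-fold lower at the high dose, with 4.86% of all genes past 2-fold, and 0 at the medium dose, with 3.09%. RPS27L was at 100.1 CPM at the high dose, 125 at the medium and 27.1 at the low dose. The low dose library stood apart. Its median log2 ratio over the 77 genes was -0.92, 3 of 87 members were at least 2-fold higher and 40 at least 2-fold lower, and 37.0% of all genes were past 2-fold. RPS27 was at 32.6 CPM there against 519 CPM in vehicle, and RPL38 at 47.9 against 298 CPM, whereas RPS19 was at 1198 against 594 CPM and RPS15 at 508 against 252 CPM. In that library the log2 ratio of other genes to vehicle rose by 1.05 per 10 points of GC, the mitochondrial ribosomal RNA share was 0.485%, and the total of 18015555 counts was the lowest of the 60.

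Calls were also counted per member over the 7 high doses against vehicle, the 7 low doses against vehicle and the 7 high against low doses. Of the 87 tested members 5 were not called in any of these: RPL23, RPL35, RPS27A, RPS4Y1 and the read-through RPL17-C18orf32. The comparison of Coptidis with Zizyphi was not part of this count, and the share of all tested genes never called was not computed.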

How the data were processed

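Directional mRNA libraries of HepG2 cells were read as 100 bp paired ends. The authors deposited 1 table of expected counts per gene, made on GRCh38. Per the submitters' processing notes, RSEM 1.3.3 and STAR 2.7.3a were used, with reads checked by FastQC 0.11.9 and trimmed by Trim Galore 0.6.5. Which annotation was used is not given in the sources. Of 267 columns 207 belong to no sample used here. Of the values 8.75% were not whole, and all were rounded before testing. Per the labels the vehicle is 0.1% DMSO, whereas the series text gives 2%.

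The 57 libraries of the 22 replicated groups entered 1 fit with TMM scaling, a filter that kept 16675 genes and left out 44000, and edgeR 4.0.16's robust quasi-likelihood F test (R 4.3.3, limma 3.58.1). Benjamini-Hochberg adjustment ran over all tested genes, with calls at an adjusted p under 0.05. SE is the absolute log2 fold change over the root of F. The fit had 35 residual degrees of freedom. The test was checked on simulated data. DESeq2 1.42.0 was an alternative.

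Length and GC content are medians over a gene's basic GENCODE 29 transcripts and enter offsets by splines with 4 degrees of freedom. The principal transcript was used first and was replaced because its lengths were implausible for some members, after member counts under it had been seen. Both are reported in the closing section.

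The members and lists were chosen with earlier results of these data known. Named genes were up to 3 largest rises and falls among called members of at least 5 CPM in each comparison of a high dose, with read-through symbols left out, a panel of RPLP0, RPL3, RPL5, RPL11, RPL22, RPS3, RPS6, RPS27, RPS27L, RPL22L1, RPL26L1, RPL36AL, RPL39, RPL39L and RPL7L1, and up to 2 genes per related list. Other members and list genes named were chosen after their values were seen. High and low replicates of a number correlated at over 0.1 in every one of 3 pairs in Bupleuri alone (0.154, 0.130 and 0.299). Values of some genes are not reported here.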

Additional observations from a re-analysis of the deposited data

How the results depend on the processing

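The number of members called moved by over 1.5 times in few of the 22 comparisons with RLE (0), TMM factors computed without the members (1), DESeq2 (2) or the replicate block (2), and in most with length and GC offsets (18), no filter (16), a separate fit of each comparison (18) or offsets from principal transcripts (15). Of 331 values of single named members, 329 kept their side of the threshold with RLE, 330 with pseudogene counts added, 328 with TMM factors computed without the members, 324 with the block and 322 with DESeq2, against 290 with no filter, 268 with offsets and 248 with a separate fit. A value called in either setting also had to keep its direction. For values called in neither setting the direction was not compared. The cause of these shifts was not tested. Beside each count the percentage of all tested genes called under the same setting is given in parentheses.

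With DESeq2 the members called at the low dose against vehicle were 4 in Zizyphi (3.92%) and 4 in Cimicifugae (6.96%), and with TMM factors computed without the members 1 in Cimicifugae (5.96%). On CPM of the library total the summed level stood at 1.04 times vehicle at the Coptidis high dose and 1.07 times at the Aconiti high dose, and as a share of nuclear protein-coding counts at 1.04 and 1.08 times. With the longest transcript the subunit and stalk genes held 6.58% of TPM in vehicle.

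With length and GC offsets the members called at the high dose against vehicle were 68 in Coptidis (69.9%), 5 in Zizyphi (1.38%), 19 in Citri (10.4%), 18 in Cimicifugae (18.8%), 28 in Bupleuri (42.1%), 20 in Aconiti (26.7%) and 26 in Yijung-tang (21.5%). At the low dose they were 36 in Coptidis (27.3%), 7 in Zizyphi (1.23%), 13 in Citri (4.87%), 11 in Cimicifugae (4.46%), 21 in Aconiti (7.23%) and 10 in Yijung-tang (2.08%). Between high and low doses they were 70 in Coptidis (63.1%), 1 in Cimicifugae (11%), 23 in Bupleuri (42.7%) and 1 in Aconiti (21.8%), with 68 between Coptidis and Zizyphi (68.2%). Member medians became 0.32 and 0.0850 in Coptidis and Yijung-tang at the high dose, 0.0435 in Coptidis at the low dose, 0.0056 between the Yijung-tang doses and 0.30 between Coptidis and Zizyphi. RPL5 turned to 0.16 at the Coptidis low dose against vehicle, and RPL7L1 to -0.00078 between the Bupleuri doses.

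With offsets from principal transcripts, the definition used first and added here after seeing the data, the members called at the high dose were 63 in Coptidis (69.9%), 5 in Zizyphi (1.55%), 16 in Citri (10.6%), 18 in Cimicifugae (18.8%), 28 in Bupleuri (42.3%), 21 in Aconiti (27.1%) and 22 in Yijung-tang (21.1%). Low doses gave 8 in Zizyphi (1.41%), 12 in Cimicifugae (4.58%), 21 in Aconiti (7.29%) and 11 in Yijung-tang (1.99%), and between doses 68 in Coptidis (63.3%), 21 in Bupleuri (42.8%) and 1 in Aconiti (22%), with 60 between Coptidis and Zizyphi (67.9%). Medians were 0.32 in Coptidis and 0.10 in Bupleuri at the high dose, 0.0472 in Coptidis at the low dose and 0.32 between Coptidis and Zizyphi. RPL36AL turned to 0.0332 at the Coptidis high dose against vehicle and to 0.13 between the Bupleuri doses, RPL22 to 0.15 at the Bupleuri high dose and RPL5 to 0.16 at the Coptidis low dose.

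With no filter on low counts the members called at the high dose were 10 in Zizyphi (2.56%), 24 in Citri (6.01%), 25 in Cimicifugae (9.58%), 30 in Bupleuri (18.1%), 25 in Aconiti (10.4%) and 35 in Yijung-tang (7.87%). Low doses gave 43 in Coptidis (15.2%), 14 in Zizyphi (2.06%), 24 in Citri (6.24%), 16 in Cimicifugae (3.07%), 27 in Aconiti (4.28%) and 18 in Yijung-tang (1.59%), and between doses 2 in Cimicifugae (3.16%), 71 in Bupleuri (19.2%), 1 in Aconiti (6.27%) and 4 in Yijung-tang (2.92%). With a separate fit of each comparison they were 20 in Zizyphi (19.3%), 43 in Citri (29%), 29 in Cimicifugae (34.3%), 43 in Bupleuri (53.4%), 42 in Aconiti (37.6%) and 54 in Yijung-tang (33.4%) at the high dose. Low doses gave 44 in Coptidis (39.3%), 17 in Zizyphi (8.68%), 46 in Citri (31.3%), 43 in Cimicifugae (23.4%), 0 in Bupleuri (0%), 56 in Aconiti (28.2%) and 43 in Yijung-tang (13.8%), and between doses 1 in Citri (2.22%), 3 in Cimicifugae (13.8%), 0 in Bupleuri (11.5%), 8 in Aconiti (25.5%) and 10 in Yijung-tang (15.9%). A fit of the set 11 libraries alone, chosen after seeing the data, called 22 members between the Coptidis doses (60%), and 44 with the replicate block (62.5%).

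With the replicate number as a block 17 members were called at the Yijung-tang high dose (17.7%, member median 0.14) and 1 at the Zizyphi low dose (2.67%), and no other count moved by over 1.5 times. The labels do not say what a replicate number shares. In Bupleuri, where same-numbered high and low libraries correlated at 0.130 to 0.299, the block gave 46 members between the doses (40.6%). The other correlations between same-numbered high and low libraries were 0.339 in Coptidis, 0.615 in Zizyphi and 0.159 in Yijung-tang, with 2 pairs each, and 0.00794 to 0.256 in Citri, Cimicifugae and Aconiti.

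Leaving out 1 library at a time, the members called at the high dose ranged over 20 to 42 in Coptidis (59.0 to 70.7%), 0 to 7 in Zizyphi (0.128 to 10.3%), 2 to 24 in Citri (7.77 to 22.2%), 3 to 21 in Cimicifugae (16.2 to 30.2%), 6 to 26 in Bupleuri (33.4 to 45.6%), 5 to 21 in Aconiti (17.6 to 31.4%) and 2 to 26 in Yijung-tang (8.12 to 24.8%). At the low dose they ranged over 7 to 42 in Coptidis (19.9 to 40.3%), 0 to 10 in Zizyphi (0.134 to 7.73%), 1 to 23 in Citri (7.36 to 24.2%), 1 to 12 in Cimicifugae (2.38 to 13.1%), 13 to 77 in Bupleuri (12.3 to 34.2%), 3 to 22 in Aconiti (5.0 to 17.6%) and 0 to 10 in Yijung-tang (0.157 to 4.87%). Between doses they ranged over 15 to 45 in Coptidis (52.5 to 64.1%), 0 to 1 in Cimicifugae (4.72 to 12.7%), 2 to 77 in Bupleuri (34.4 to 45.3%), 0 to 2 in Aconiti (9.66 to 22.2%) and 0 to 3 in Yijung-tang (3.41 to 12.1%), and over 14 to 40 between Coptidis and Zizyphi (56.7 to 68.4%). Medians ranged over 0.030 to 0.23 in Coptidis and 0.11 to 0.14 in Yijung-tang at the high dose, and over -0.16 to 0.012 in Coptidis and -0.024 to 0.14 in Zizyphi at the low dose. Where an arm held 1 library, it was assumed to vary like the other groups.

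Groups of 2 or 3 libraries limit the precision of every value, and replicates differed by more than sampling noise in all 48 pairs. Comparisons with vehicle confound the extract with the set. Length and GC slopes differ between libraries.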
